A study of Mus musculus with 4 samples.

Results

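The comparison described here sets mouse mast cells cocultured with the Notch ligand Dll1 against mast cells cultured with TGF-beta1. It uses 2 of the 4 arrays of the study, chosen by their labels, and all 22180 genes whose probe sets carry a single gene symbol, from 23521 of 33793 probe sets. The starting cells were bone marrow-derived mast cells (BMMCs) of BALB/c mice, which had been grown from marrow in interleukin-3 and stem cell factor (10 ng/ml each) for 3 to 4 weeks. The Dll1 cells then spent 6 days on Chinese hamster ovary (CHO) cells that express mouse Dll1 and were recovered on magnetic beads that bind the receptor c-Kit. The TGF-beta1 cells spent 6 days with TGF-beta1 at 5 ng/ml, and the labels name no feeder cell and no selection step for them. Interleukin-3 and stem cell factor at 10 ng/ml each were also in the 6-day Dll1, TGF-beta1 and control cultures. Intestinal mast cells, sorted by flow cytometry as FceRI+ c-Kit+ from small intestinal lamina propria in naive animals of the same strain, and control BMMCs kept for 6 days in normal medium are given as points of reference. Each group is 1 array, so no p-value or replicate error exists for any value below, and the effects of Dll1, of contact with CHO cells and of bead selection cannot be told apart.

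Notch receptors are activated by ligands on a neighbouring cell, whereupon the cut intracellular part of the receptor joins the DNA-binding protein RBPJ in the nucleus. TGF-beta1 is a soluble cytokine that signals through receptor kinases to SMAD transcription factors. Either signal is known to make cultured mouse mast cells take up features of mucosal mast cells, the kind found in the gut epithelium and lamina propria, whose granules hold the chymases Mcpt1 and Mcpt2. Connective tissue mast cells, found in skin and the peritoneum, store Mcpt4, Cma1, the tryptases Tpsb2 and Tpsab1 and the carboxypeptidase Cpa3.

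Levels are log2 values as deposited, and they are compared for a gene between arrays, not between genes. A gene was counted as above background when its level passed the 95th percentile of 1440 probe sets for olfactory, vomeronasal and taste receptors, which lay at 5.12 on the Dll1 array, 5.2 on the TGF-beta1 array, 5.11 on the intestinal array and 5.11 on the control array. A gene was called higher or lower when the difference was at least 2-fold, with any level under the limit raised to it, and a fold is printed as "at least" where only 1 of the 2 arrays was above the limit. In bulk RNA, a larger share of cells that express a gene and more RNA per cell cannot be told apart. The defining mast cell markers Kit and Fcer1a, named here outside the rule for named genes, each differed by less than 2-fold. The stem cell factor receptor Kit, on which the Dll1 cells were selected, read 12.54 with Dll1 and 12.22 with TGF-beta1. The alpha chain of the IgE receptor, Fcer1a, read 12.39 with Dll1 and 12.40 with TGF-beta1. Of 22 mast cell identity genes measured, all were above background on 1 or both arrays. Of these, 2 were higher with Dll1 (Hdc and Smpx) and 1 was lower (Rgs13). The shares were 9.09% and 4.55%, against 2.19% and 1.89% of all genes above background on 1 or both arrays. Rgs13 read 6.59 with Dll1 and 7.92 with TGF-beta1, while Smpx read 6.62 with Dll1 and 5.21 with TGF-beta1.

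Of the 22180 genes, 12690 were above background on 1 or both arrays. Among these, 278 genes were at least 2-fold higher with Dll1 than with TGF-beta1 (2.19%), and 240 were at least 2-fold lower (1.89%). Together they made 4.08%, so a short list with few or no such genes lies near that share. The limit was passed on the Dll1 array alone by 1386 genes and on the TGF-beta1 array alone by 320. Counts over list members above background can therefore be tilted towards higher readings with Dll1. Most genes lay close together, with 10981 of them (86.5%) within 1.5-fold. The larger differences ran mainly upwards in the Dll1 coculture, with 65 genes at least 4-fold higher (0.512%) and 15 at least 4-fold lower (0.118%). The threshold had no gap around it: log2 differences between 1.0 and 1.1 were held by 48 higher and 66 lower genes, and those between 0.9 and 1.0 by 59 higher and 90 lower genes. In 344 genes with exactly 2 probe sets above background on both arrays, the 2 differences had a within-gene SD of 0.34 on the log2 scale. This gauge covers no variation between cultures.

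**Figure D1:**
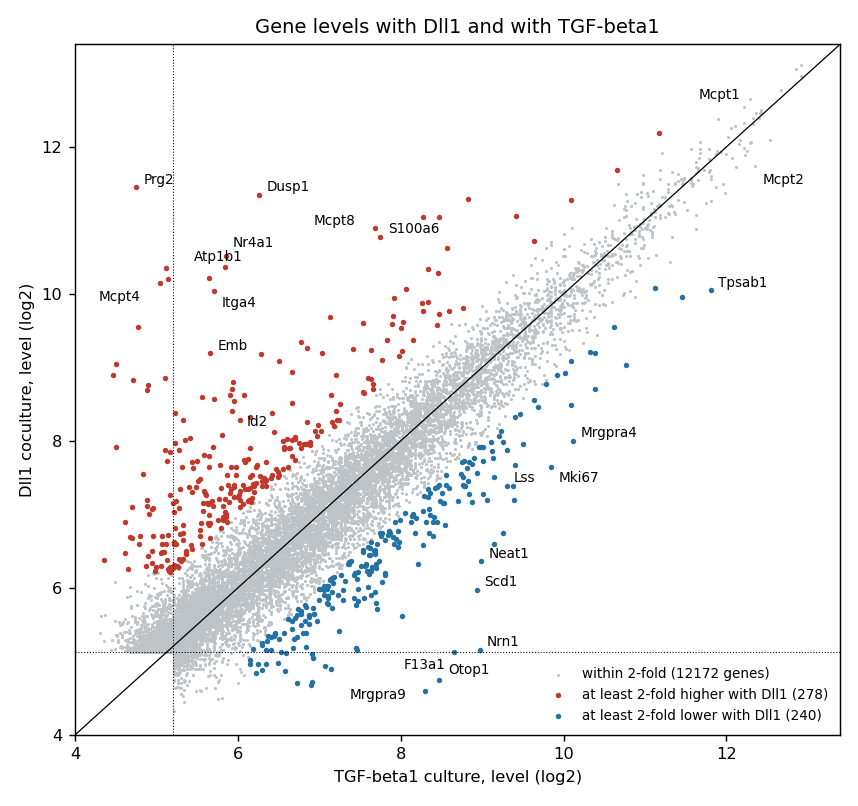
Level of each of the 12690 genes above background on 1 or both arrays, with the Dll1 coculture on the vertical axis and the TGF-beta1 culture on the horizontal axis (both log2). Red points are the 278 genes at least 2-fold higher with Dll1, blue points the 240 at least 2-fold lower and grey points the rest. Dotted lines are the background limits. Mcpt1 and Mcpt2 lie near the diagonal, while Mcpt4, Prg2 and Dusp1 lie far above it and Nrn1 and F13a1 far below it.

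The mucosal chymases Mcpt1 and Mcpt2 each differed by less than 2-fold between the 2 arrays, while 6 other protease genes passed 2-fold. Of 18 genes on the protease list, 17 were above background on 1 or both arrays, 5 were higher with Dll1 (Mcpt4, Mcpt8, Ctsg, Gzma and Gzmb) and 1 was lower (Tpsab1). These were 29.4% and 5.88% of the 17, against 2.19% and 1.89% of all tested genes. The median difference over the 18 genes was 0.10 on the log2 scale, against 0.02 over all 22180 genes. The mucosal chymase Mcpt1 read 12.46 with Dll1 and 12.41 with TGF-beta1, beside 12.72 in intestinal mast cells and 4.82 in control BMMCs. Mcpt2 read 11.74 with Dll1 and 12.35 with TGF-beta1, 1.53-fold lower with Dll1. Neither passed 2-fold.

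Mcpt4, a connective tissue chymase of the same gene cluster, differed more than any other protease of the list. It read 10.15 with Dll1 and 5.04 with TGF-beta1, which was below background, so it was at least 30.8-fold higher with Dll1. Its levels of 10.41 in intestinal mast cells and 4.53 in control BMMCs place the Dll1 array beside the intestinal one. The RefSeq windows from 250 bases before to 50 bases after the annotated starts of Mcpt1 (GRCm38.p6 chr14:56017714-56018013, plus strand) and Mcpt4 (chr14:56062261-56062560, minus strand) are shown because the 2 genes have like windows and unlike readings. They come from the reference mouse genome and not from BALB/c, and capitals mark the bases that differ or have no partner in the alignment.
Mcpt1: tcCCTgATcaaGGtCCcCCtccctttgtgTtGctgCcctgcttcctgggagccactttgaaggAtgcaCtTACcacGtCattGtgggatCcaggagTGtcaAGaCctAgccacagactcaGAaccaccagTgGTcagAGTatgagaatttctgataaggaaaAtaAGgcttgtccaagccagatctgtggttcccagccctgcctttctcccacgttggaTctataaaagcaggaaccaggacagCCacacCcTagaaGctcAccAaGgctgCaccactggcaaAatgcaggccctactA
Mcpt4: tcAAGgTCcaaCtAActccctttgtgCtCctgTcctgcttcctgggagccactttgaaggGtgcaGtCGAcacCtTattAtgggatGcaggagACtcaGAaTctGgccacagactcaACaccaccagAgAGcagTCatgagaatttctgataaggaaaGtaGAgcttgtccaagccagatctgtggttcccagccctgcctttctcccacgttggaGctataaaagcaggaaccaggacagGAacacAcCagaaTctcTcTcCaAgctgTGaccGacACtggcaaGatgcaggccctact
In the alignment 248 of 305 columns were identical (81.3%), with 10 gap columns.

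Mcpt8 and cathepsin G were higher with Dll1 at levels close to the intestinal ones, and granzyme A was higher while staying below its intestinal level. Mcpt8, a protease best known from basophils, read 10.89 with Dll1 and 7.68 with TGF-beta1, 9.30-fold higher with Dll1, beside 10.94 in intestinal mast cells and 8.5 in control BMMCs. Cathepsin G (Ctsg) read 8.70 with Dll1 and 5.93 with TGF-beta1, 6.82-fold higher, beside 8.64 in intestinal mast cells and 5.41 in control BMMCs. Granzyme A (Gzma) read 7.92 with Dll1 and 4.5 with TGF-beta1, at least 6.59-fold higher, beside 10.33 in intestinal mast cells. Granzyme B (Gzmb), a serine protease of cytotoxic cells and mast cells, stood just past the threshold, with 12.19 with Dll1 and 11.17 with TGF-beta1. Granzyme C (Gzmc) read 6.08 with Dll1 and 4.49 with TGF-beta1, a bound of 1.83-fold that did not pass. Ctsg and Mcpt8 also mark other granulocytes, whose markers were higher on the Dll1 array and the part of such cells in these readings was not tested.

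The tryptase Tpsab1 went the other way. It read 10.05 with Dll1 and 11.81 with TGF-beta1, 3.39-fold lower with Dll1, beside 5.26 in intestinal mast cells and 8.25 in control BMMCs. The sister tryptase Tpsb2 read 11.83 with Dll1 and 11.78 with TGF-beta1, while Cpa3 read 13.11 with Dll1 and 12.92 with TGF-beta1. Cma1, a chymase of connective tissue mast cells, read 11.37 with Dll1 and 11.98 with TGF-beta1, against 7.16 in intestinal mast cells. The connective tissue proteases therefore had no common direction: Mcpt4 was higher with Dll1, Tpsab1 was lower, and Cma1, Tpsb2 and Cpa3 stayed within 2-fold. Mcpt9 was below background on both arrays and read 7.08 in intestinal mast cells. The remaining genes of the list, Cma2, Mcpt-ps1, Ctsc, Tpsg1 and the granule proteoglycan core Srgn, differed by at most 1.34-fold.

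**Figure D2:**
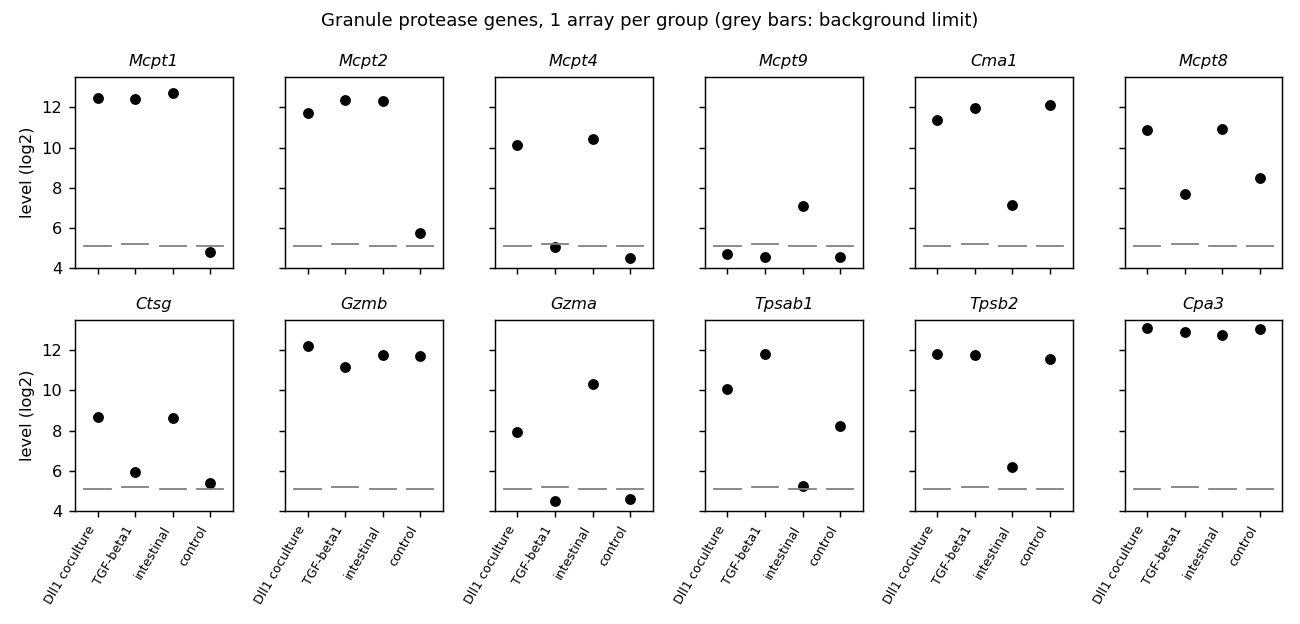
Level (log2, vertical axis) of 12 granule protease genes on the Dll1, TGF-beta1, intestinal and control arrays, 1 point per array, with grey bars at each array's background limit. Mcpt4, Mcpt8, Ctsg and Gzma are higher on the Dll1 and intestinal arrays than on the TGF-beta1 and control arrays, while Mcpt1 and Mcpt2 are high on all but the control array.

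Among genes of the Notch pathway, the ligand and 4 of 20 targets above background were higher with Dll1, and no gene of the machinery passed 2-fold. Of 9 Notch ligands and receptors, 6 were above background and 1, Dll1, was higher in the coculture (16.7%, against 2.19% of all tested genes). The gene for the ligand Dll1 read 7.10 with Dll1 and 4.70 with TGF-beta1, at least 3.71-fold higher, and was below background in intestinal mast cells at 4.88 and in control BMMCs at 4.79. A further Dll1 probe set read 5.13 with Dll1 and 4.84 with TGF-beta1, so the reading rests on 1 of 2 probe sets, and whether this RNA came from the CHO cells was not tested. The receptor Notch2 read 10.35 with Dll1 and 10.14 with TGF-beta1, while Notch1 read 6.25 with Dll1 and 6.43 with TGF-beta1. None of the 21 genes of the Notch machinery passed 2-fold, where 4.08% of all tested genes did, and a list of this length with none lies near that share. The largest difference among them was that of Lfng, a glycosyltransferase that modifies Notch receptors, which read 7.41 with Dll1 and 8.29 with TGF-beta1, 1.84-fold lower with Dll1.

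Of 23 listed Notch targets, 20 were above background, 4 were higher with Dll1 (20%) and 1 was lower (5%), against 2.19% and 1.89% of all tested genes. The median was -0.03 on the log2 scale over the 23 and 0.10 over the 20. Cd7, a surface protein of T and NK cells, read 10.20 with Dll1 and 5.14 with TGF-beta1, at least 31.9-fold higher, beside 10.05 in intestinal mast cells and 5.50 in control BMMCs. The interleukin-2 receptor alpha chain Il2ra read 7.31 with Dll1 and 5.43 with TGF-beta1, while the growth factor receptor Igf1r read 7.35 with Dll1 and 6.09 with TGF-beta1. Both had lower readings in intestinal mast cells than with Dll1, of 5.31 for Il2ra and 5.43 for Igf1r. Hes1, the transcriptional repressor best known as a direct Notch target, read 7.01 with Dll1 and 5.85 with TGF-beta1, 2.22-fold higher, beside 7.51 in intestinal mast cells and 6.03 in control BMMCs.

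The other repressors of the Hes and Hey families did not share the Hes1 difference. Hey2 read 6.28 with Dll1 and 7.65 with TGF-beta1, 2.58-fold lower with Dll1. Hes5, Hes6, Hes7 and Heyl lay within 1.17-fold, and Hey1 was below background on both arrays while reading 9.71 in intestinal mast cells. The feedback regulator Nrarp read 5.31 with Dll1 and 5.62 with TGF-beta1, while Dtx1, an E3 ligase of the pathway, read 5.31 with Dll1 and 5.61 with TGF-beta1. Gata3, a transcription factor of T helper cells, read 6.19 with Dll1 and 5.61 with TGF-beta1, while the oncogene Myc read 8.4 with Dll1 and 8.71 with TGF-beta1, neither past 2-fold. In the RefSeq start windows, the RBPJ motif GTGGGAA on either strand was present in 3 of 13 tested Notch targets that had a window (23.1%), against 6.93% of 9954 tested genes. It was present in 8.37% of the genes higher with Dll1 and 9.14% of the lower genes that had a window.

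Most TGF-beta receptor and SMAD genes lay within 2-fold on the 2 arrays. Of 28 genes, 23 were above background, none was higher with Dll1 and 2 feedback inhibitors were lower (8.7%, against 1.89% of all tested genes). Ldlrad4, which sequesters SMAD proteins, read 5.86 with Dll1 and 7.43 with TGF-beta1, 2.97-fold lower with Dll1, beside 9.55 in intestinal mast cells and 5.63 in control BMMCs. Skil, a SMAD corepressor, read 5.79 with Dll1 and 7.09 with TGF-beta1, 2.46-fold lower, beside 8.55 in intestinal mast cells and 5.77 in control BMMCs. On the Dll1 array both stood near their control readings. The inhibitory Smad7 read 8.01 with Dll1 and 8.01 with TGF-beta1, beside 7.42 in control BMMCs, and the receptor Tgfbr2 read 8.36 with Dll1 and 7.98 with TGF-beta1.

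Among 29 TGF-beta targets, 28 were above background, 2 were higher with Dll1 (7.14%) and 2 were lower (7.14%), against 2.19% and 1.89% of all tested genes. The lower ones were Ldlrad4 and Skil, which are also on the receptor list. Itgae, the alpha-E integrin chain that binds E-cadherin and is induced by TGF-beta in T cells and mast cells, read 7.97 with Dll1 and 8.84 with TGF-beta1, 1.82-fold lower with Dll1 and not past 2-fold, against 5.57 in control BMMCs. The higher ones were Junb, an AP-1 factor that read 11.05 with Dll1 and 8.47 with TGF-beta1, while Id2, an inhibitor of basic helix-loop-helix factors. Id2 read 8.28 with Dll1 and 6.02 with TGF-beta1, 4.79-fold higher, and at 7.90 the control reading was close to that with Dll1. The cell cycle inhibitors Cdkn1a and Cdkn2b differed by 1.76-fold and 1.81-fold, both higher with Dll1 without passing 2-fold. The median over the list was 0.22 on the log2 scale.

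Cell surface adhesion genes held some of the largest differences. Of 25 integrin genes, 19 were above background, 5 were higher with Dll1 (26.3%) and 1 was lower (5.26%), against 2.19% and 1.89% of all tested genes. Itga4, the alpha-4 chain that pairs with beta-1 or beta-7 and takes part in homing to the gut, read 10.04 with Dll1 and 5.71 with TGF-beta1, 20.1-fold higher, beside 8.89 in intestinal mast cells and 7.21 in control BMMCs. Its partners were level: Itgb7 read 9.66 with Dll1 and 9.27 with TGF-beta1, while Itgb1 read 7.86 with Dll1 and 7.57 with TGF-beta1. For Itga4 the Dll1 array was the highest and the TGF-beta1 array the lowest of the 4.

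The beta-3 chain Itgb3, known from platelets, read 9.26 with Dll1 and 6.85 with TGF-beta1, 5.32-fold higher, while its partners Itga2b and Itgav stayed within 1.68-fold. The leukocyte beta-2 chain Itgb2 read 7.53 with Dll1 and 5.97 with TGF-beta1, 2.94-fold higher, and its alpha partner Itgam read 6.48 with Dll1 and 5.05 with TGF-beta1, at least 2.43-fold higher. Itga9 read 6.71 with Dll1 and 5.53 with TGF-beta1, 2.27-fold higher. Itga7, a laminin-binding chain, was the one lower with Dll1, at 5.18 with Dll1 and 7.45 with TGF-beta1, 4.82-fold lower, beside 6.30 in intestinal mast cells and 5.08 in control BMMCs. The dendritic cell chain Itgax was near background in both cultures, at 5.27 with Dll1 and 5.22 with TGF-beta1, and at 11.19 in intestinal mast cells.

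Of 31 other adhesion molecules, 25 were above background, 4 were higher with Dll1 (16%) and 1 was lower (4%), against 2.19% and 1.89% of all tested genes. Embigin (Emb), an immunoglobulin superfamily protein, read 9.19 with Dll1 and 5.66 with TGF-beta1, 11.6-fold higher, but a second Emb probe set read 5.21 with Dll1 and 5.22 with TGF-beta1. L1cam, a neural adhesion molecule, read 8.93 with Dll1 and 6.66 with TGF-beta1, 4.83-fold higher, and the tetraspanins Cd81 and Cd82 were at least 2.44-fold and 2.05-fold higher. E-cadherin (Cdh1), which mast cells of the gut carry, read 6.32 with Dll1 and 7.57 with TGF-beta1, 2.38-fold lower, beside 10.12 in intestinal mast cells and 6.16 in control BMMCs. A further Cdh1 probe set was below background on both arrays. Outside the adhesion lists, the sodium pump beta-1 subunit Atp1b1 read 10.22 with Dll1 and 5.64 with TGF-beta1, 23.8-fold higher, beside 10.98 in intestinal mast cells and 7.85 in control BMMCs.

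The immediate early genes, a fast response to many stimuli and also to the handling of cells, were the list with the most higher members. All 31 were above background on 1 or both arrays, 16 were higher with Dll1 and none was lower. The 16 made 51.6% of the list, against 2.19% of all tested genes. The median over the list was 1.06 on the log2 scale, against 0.02 over all genes. Fosb, an AP-1 subunit, read 10.35 with Dll1 and 5.12 with TGF-beta1, at least 35.4-fold higher, beside 11.57 in intestinal mast cells and 5.81 in control BMMCs. The phosphatase Dusp1, which switches off MAP kinases, read 11.35 with Dll1 and 6.26 with TGF-beta1, 34.1-fold higher, beside 12.25 in intestinal mast cells and 6.38 in control BMMCs. The nuclear receptor Nr4a1 read 10.51 with Dll1 and 5.85 with TGF-beta1, 25.2-fold higher, and the zinc finger factor Egr1 read 10.37 with Dll1 and 5.84 with TGF-beta1, 23.2-fold higher.

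The arrays of the cells that were put through a selection, by beads or by flow cytometry, carried the high immediate early readings. The 31 genes averaged 8.13 with Dll1 and 6.42 with TGF-beta1, beside 9.51 in intestinal mast cells and 6.48 in control BMMCs. For 15 of the 16 genes higher with Dll1, the intestinal reading was higher still, and the exception was Dusp6, with 11.05 with Dll1 and 10.95 in intestinal mast cells. Of 13 heat shock genes measured, 11 were above background in the 2 cultures, none was higher with Dll1 and 1, Hspa4l, was 2.19-fold lower. That was 9.09% of the 11, against 1.89% of all tested genes. The 13 averaged 6.76 with Dll1 and 6.75 with TGF-beta1, beside 8.67 in intestinal mast cells and 6.70 in control BMMCs. The part of cell selection in these readings was not tested.

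The MAP kinase phosphatases Dusp5 and Dusp6 were also higher with Dll1, by 8.18-fold and 6.87-fold, as were Egr3 by 7.78-fold, Ier2 by 6.61-fold, Junb by 5.96-fold and the antiproliferative gene Btg2 by 6.18-fold. A further Dusp6 probe set gave a smaller difference of 0.89 on the log2 scale. The AP-1 subunit Jun read 9.36 with Dll1 and 8.61 with TGF-beta1, 1.68-fold higher and not past the threshold. The start windows of Fosb (GRCm38.p6 chr7:19309996-19310295, minus strand) and Dusp1 (chr17:26508423-26508722, minus strand) are shown because they head the list, with the core of the cyclic AMP response element, TGACG or its reverse CGTCA, in capitals.
Fosb: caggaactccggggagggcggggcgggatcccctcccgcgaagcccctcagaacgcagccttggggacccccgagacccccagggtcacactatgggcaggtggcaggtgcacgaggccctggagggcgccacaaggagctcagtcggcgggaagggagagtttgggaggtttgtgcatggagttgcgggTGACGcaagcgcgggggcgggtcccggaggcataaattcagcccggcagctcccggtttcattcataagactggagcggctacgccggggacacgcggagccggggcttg
Dusp1: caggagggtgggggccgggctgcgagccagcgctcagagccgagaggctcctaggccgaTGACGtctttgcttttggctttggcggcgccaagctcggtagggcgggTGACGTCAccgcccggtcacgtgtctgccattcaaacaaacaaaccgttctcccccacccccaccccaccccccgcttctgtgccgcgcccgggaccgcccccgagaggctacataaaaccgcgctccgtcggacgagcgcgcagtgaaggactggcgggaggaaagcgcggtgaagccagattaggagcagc
Counted from the annotated start, the core begins at -60 in Fosb and at -191, -143 and -140 in Dusp1, where the last is on the opposite strand and overlaps its neighbour. This motif was present in 11 of 13 higher immediate early genes that had a window (84.6%) and in 17 of 27 tested genes of the list (63.0%), against 34.1% of the 9954 tested genes. Across all genes past 2-fold with a window, it was present in 25.6% of the 203 higher and 31.7% of the 186 lower ones. The matches are descriptions of the sequence and were not tested for binding.

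Secreted and surface proteins of immune signalling were higher with Dll1 more often than lower. Of 41 cytokine and chemokine genes, 26 were above background, 7 were higher with Dll1 and none was lower. The 7 made 26.9% of the 26, against 2.19% of all tested genes. The macrophage growth factor Csf1 read 8.54 with Dll1 and 5.95 with TGF-beta1, 6.00-fold higher, beside 8.53 in intestinal mast cells and 7.30 in control BMMCs. The chemokine Ccl3 read 8.4 with Dll1 and 5.93 with TGF-beta1, 5.55-fold higher, beside 9.98 in intestinal mast cells. Ccl2 read 9.95 with Dll1 and 7.92 with TGF-beta1, 4.08-fold higher, and in its case the control reading of 9.60 was close to that with Dll1 and the intestinal one of 6.13 was lowest. Ccl4, Lif and Osm were higher by 2.58-fold, 2.57-fold and 2.20-fold. The last of the 7 was Il4, at 7.49 with Dll1 and 6.41 with TGF-beta1, named here after its value was seen.

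Of 45 cytokine and growth factor receptor genes, 36 were above background, 5 were higher with Dll1 (13.9%) and 1 was lower (2.78%). The shares over all tested genes were 2.19% and 1.89%. Besides Il2ra and Igf1r the higher genes were the interleukin-7 receptor Il7r, at 7.08 with Dll1 and 4.96 with TGF-beta1, the costimulatory receptor Tnfrsf9, at 9.70 with Dll1 and 7.91 with TGF-beta1, and the interleukin-18 receptor subunit Il18rap, at 7.65 with Dll1 and 5.91 with TGF-beta1. The erythropoietin receptor Epor read 5.55 with Dll1 and 6.82 with TGF-beta1, 2.41-fold lower. Among 45 chemoattractant and lipid receptors, 31 were above background, 5 were higher with Dll1 (16.1%) and 1 was lower (3.23%). Ccrl2, an atypical receptor that binds chemerin, read 7.63 with Dll1 and 5.45 with TGF-beta1, 4.51-fold higher, and Cxcr4, the receptor of Cxcl12, read 7.90 with Dll1 and 6.64 with TGF-beta1, 2.38-fold higher. Both were higher still in intestinal mast cells, at 10.32 for Ccrl2 and 10.88 for Cxcr4. Ccr1, the oxysterol receptor Gpr183 and the leukotriene B4 receptor Ltb4r1 completed the higher genes, and the nucleotide receptor P2ry1 was 2.67-fold lower.

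Histamine and serotonin genes differed in both directions. Histidine decarboxylase (Hdc), which makes histamine, read 7.18 with Dll1 and 5.68 with TGF-beta1, 2.83-fold higher, beside 6.90 in intestinal mast cells and 6.62 in control BMMCs. The histamine receptor Hrh4 read 9.77 with Dll1 and 8.27 with TGF-beta1, also 2.83-fold higher. Aromatic amino acid decarboxylase (Ddc), which makes serotonin, read 6.09 with Dll1 and 7.31 with TGF-beta1, 2.34-fold lower, while Tph1, which forms its substrate, read 11.89 with Dll1 and 12.23 with TGF-beta1. Of 30 glycosaminoglycan genes for the granule matrix, 29 were above background, 3 were higher (10.3%) and 1 was lower (3.45%), against 2.19% and 1.89% of all tested genes. Among the higher ones were xylosyltransferase Xylt1, which starts the chains, at 8.0 with Dll1 and 6.55 with TGF-beta1, and the epimerase Dse, at least 3.98-fold higher.

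No listed gene of the machinery that triggers and carries out degranulation passed 2-fold, where 4.08% of all tested genes did. Lists of this length with no such gene lie near that share. None of 28 FceRI signalling genes passed 2-fold, with log2 differences between -0.72 and 0.48. Likewise no gene of the 32 on the degranulation list did, with differences between -0.88 and 0.80 among the 30 above background. Within the Mas-related receptor family, to which the mast cell receptors for basic peptides belong, 21 genes were measured and 9 were above background in the 2 cultures. Of these, 4 were lower with Dll1 (44.4%, against 1.89% of all tested genes) and none was higher. Mrgpra9 read 4.59 with Dll1 and 8.30 with TGF-beta1, at least 9.08-fold lower, beside 10.23 in intestinal mast cells and 4.71 in control BMMCs. Mrgpra4 read 8.0 with Dll1 and 10.12 with TGF-beta1, 4.35-fold lower, beside 6.12 in intestinal mast cells and 11.09 in control BMMCs. Mrgprb13 and Mrgpra2a were lower by at least 3.06-fold and by 2.32-fold, and near-identical members of this family can share probe signal.

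Cholesterol synthesis was the list with the most uniform difference. All 19 measured genes were above background on both arrays, and all 19 read lower with Dll1 than with TGF-beta1. Of them, 15 were at least 2-fold lower (78.9%, against 1.89% of all tested genes). The log2 differences ran from -1.91 to -0.25, with a median of -1.23. Lanosterol synthase (Lss), which closes the sterol rings, read 7.39 with Dll1 and 9.30 with TGF-beta1, 3.75-fold lower, beside 6.74 in intestinal mast cells and 8.79 in control BMMCs. Insig1, the sterol sensor partner that holds back SREBP activation and is itself an SREBP target, read 7.19 with Dll1 and 9.06 with TGF-beta1, 3.66-fold lower, beside 8.82 in intestinal mast cells and 8.73 in control BMMCs. Control readings of all 15 genes lay between those of the 2 cultures, and 14 of them were nearer to TGF-beta1.

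Enzymes from the start to the end of the pathway took part. Hmgcs1, which makes the substrate of HMG-CoA reductase, read 7.67 with Dll1 and 9.40 with TGF-beta1, 3.31-fold lower. Mvd and Fdps, which lead to farnesyl diphosphate, were 3.22-fold and 3.20-fold lower, and Fdft1 and Sqle, which make and oxidise squalene, were 2.57-fold and 2.18-fold lower. Hsd17b7, Tm7sf2, Dhcr7, Nsdhl and Msmo1 of the later sterol steps were lower by 3.34-fold, 3.23-fold, 2.39-fold, 2.04-fold and 2.01-fold. Mvk, Pmvk and the sterol carrier Stard4 were lower by 2.21-fold, 2.16-fold and 2.34-fold. Sc5d, Cyp51, Ebp and the transcription factor Srebf2 did not pass. Sc5d stood just under the threshold at 7.55 with Dll1 and 8.55 with TGF-beta1, and the other differences were 1.88-fold for Cyp51, 1.40-fold for Srebf2 and 1.19-fold for Ebp.

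The start windows of Lss (GRCm38.p6 chr10:76531355-76531654, plus strand) and Insig1 (chr5:28071162-28071461, plus strand) are shown as the 2 genes with the largest differences of the list. Capitals mark the CCAAT box, the element of the factor NF-Y, written CCAAT or, on the opposite strand, ATTGG.
Lss: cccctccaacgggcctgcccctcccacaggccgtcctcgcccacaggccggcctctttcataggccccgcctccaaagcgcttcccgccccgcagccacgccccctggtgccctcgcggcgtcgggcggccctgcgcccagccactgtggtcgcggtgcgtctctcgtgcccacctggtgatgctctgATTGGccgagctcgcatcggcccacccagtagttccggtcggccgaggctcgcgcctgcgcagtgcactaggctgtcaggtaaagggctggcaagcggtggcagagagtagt
Insig1: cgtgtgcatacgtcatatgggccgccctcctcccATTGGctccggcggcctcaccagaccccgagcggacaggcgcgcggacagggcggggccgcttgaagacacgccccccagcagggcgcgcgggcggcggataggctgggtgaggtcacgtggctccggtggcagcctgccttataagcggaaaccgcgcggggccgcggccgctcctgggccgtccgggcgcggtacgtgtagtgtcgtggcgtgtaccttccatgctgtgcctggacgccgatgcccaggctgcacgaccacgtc
In both windows the box is on the opposite strand, beginning at -62 from the Lss start and at -216 from the Insig1 start. A CCAAT box was present in 11 of 11 lower cholesterol genes that had a window, and in 15 of 15 tested genes of the list, against 42.0% of the 9954 tested genes. A 9-base form of the sterol regulatory element was also searched for. It was present in 1 of the 11 (9.09%) and in 1 of the 15 (6.67%), against 1.44% of the 9954. 

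Fatty acid genes leaned the same way with fewer members past the threshold. Of 23 measured, 19 were above background, none was higher with Dll1 and 4 were lower, with a median of -0.71 on the log2 scale over the 23. The 4 made 21.1% of the 19, against 1.89% of all tested genes. Scd1, which desaturates stearoyl-CoA, read 5.97 with Dll1 and 8.93 with TGF-beta1, 7.78-fold lower, beside 4.79 in intestinal mast cells and 6.95 in control BMMCs. The desaturase Fads2 read 9.96 with Dll1 and 11.46 with TGF-beta1, 2.84-fold lower, and Acss2, which makes acetyl-CoA from acetate, was 3.30-fold lower. Insig1, also on this list, was the last. The sterol exporters Abca1 and Abcg1, targets of the oxysterol receptor LXR, differed in the opposite direction from the synthesis genes. Abcg1 read 7.71 with Dll1 and 6.09 with TGF-beta1, 3.08-fold higher, and Abca1 read 6.82 with Dll1 and 5.23 with TGF-beta1, 3.02-fold higher. They were the only members of the 11-gene LXR list past 2-fold (18.2%, against 2.19% of all tested genes higher with Dll1). Srebf1, another LXR target, read 7.49 with Dll1 and 8.19 with TGF-beta1.

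Cell cycle genes were lower with Dll1 as a group. All 38 measured were above background on both arrays, 37 read lower with Dll1, 14 of them at least 2-fold, and the median was -0.89 on the log2 scale. The 14 made 36.8% of the list, against 1.89% of all tested genes. The proliferation marker Mki67 read 7.64 with Dll1 and 9.85 with TGF-beta1, 4.63-fold lower, beside 9.82 in intestinal mast cells and 9.37 in control BMMCs. The repressor E2f8 read 7.39 with Dll1 and 9.38 with TGF-beta1, 3.96-fold lower. The mitotic genes Cenpe, Aurkb, Kif11 and Tpx2, for a kinetochore motor, a kinase, a spindle motor and a spindle assembly factor, were lower by 3.14-fold, 3.12-fold, 2.94-fold and 2.71-fold. The Dll1 array was the lowest of the 4 for each of the 14 genes, since control and intestinal readings all lay above it.

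DNA replication genes gave a smaller difference of the same direction, with a median of -0.54 on the log2 scale and none higher with Dll1. Of 29, 5 were lower (17.2%, against 1.89% of all tested genes). They were Uhrf1, which helps to copy DNA methylation, Pold1, Chaf1a, Prim1 and Mcm10, lower by between 2.03-fold and 2.56-fold. For all 5 the intestinal reading was nearer to TGF-beta1 than to Dll1. Among cell cycle inhibitors and D cyclins, the antiproliferative genes Btg1 and Btg2 were higher with Dll1, by 4.49-fold and 6.18-fold, and both are also early response genes or close relatives of such genes. D-type cyclin Ccnd2 read 10.90 with Dll1 and 10.10 with TGF-beta1, 1.74-fold higher and not past the threshold. Of 18 core and linker histone genes 8 were above background and 3 were lower with Dll1, namely H1f3, H2bc3 and H2ac15. That was 37.5% of the 8, against 1.89% of all tested genes.

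The windows of Mki67 (GRCm38.p6 chr7:135716330-135716629, minus strand) and E2f8 (chr7:48881547-48881846, minus strand) show the cell cycle genes homology region, TTTGAA or its reverse TTCAAA, in capitals, because they are the most different genes of the list.
Mki67: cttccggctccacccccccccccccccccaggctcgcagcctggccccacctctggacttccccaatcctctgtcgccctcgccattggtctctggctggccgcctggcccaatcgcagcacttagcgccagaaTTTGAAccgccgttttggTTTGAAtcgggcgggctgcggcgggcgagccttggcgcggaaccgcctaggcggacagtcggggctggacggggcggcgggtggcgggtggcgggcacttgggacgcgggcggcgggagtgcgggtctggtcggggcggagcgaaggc
E2f8: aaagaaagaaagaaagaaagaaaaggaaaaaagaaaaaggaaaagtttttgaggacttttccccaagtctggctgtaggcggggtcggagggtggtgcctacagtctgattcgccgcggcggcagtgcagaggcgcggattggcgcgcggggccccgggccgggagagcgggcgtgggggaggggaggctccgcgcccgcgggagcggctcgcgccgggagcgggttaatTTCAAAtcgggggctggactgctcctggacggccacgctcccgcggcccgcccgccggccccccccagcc
Mki67 holds it at -116 and -98 from its start, and E2f8 at -20 on the opposite strand. The motif was present in 8 of 12 lower cell cycle genes that had a window (66.7%) and in 18 of 32 tested genes of the list (56.2%), against 14.1% of the 9954 tested genes. A CCAAT box was present in 10 of those 12 (83.3%) and in 24 of the 32 (75.0%). Across all 186 lower genes with a window, 110 held a CCAAT box (59.1%), compared with 85 of 203 higher genes (41.9%) and 42.0% of tested genes.

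**Figure D3:**
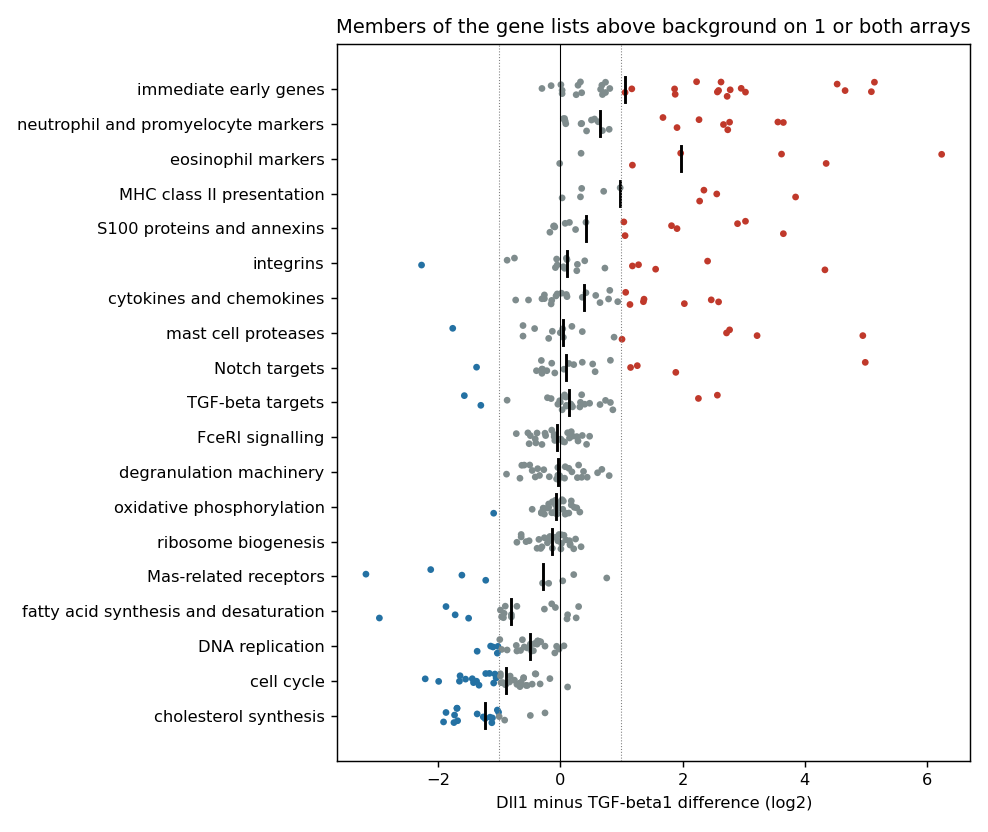
Dll1 minus TGF-beta1 difference (log2, horizontal axis) of every member above background on 1 or both arrays, for 19 gene lists. Red points are at least 2-fold higher with Dll1, blue points at least 2-fold lower, and black ticks are medians of the points shown. Immediate early genes spread to the right, cholesterol synthesis and cell cycle genes lie almost wholly left of 0, and FceRI signalling and degranulation genes stay within 2-fold.

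Several granule protein genes of eosinophils and neutrophils were above background on the Dll1 array alone. Of 11 eosinophil markers, 7 were above background with Dll1 and 2 with TGF-beta1. Of the 7, 5 were higher with Dll1 (71.4%, against 2.19% of all tested genes). All 7 passed the limit on the Dll1 array, so counts over them are tilted towards higher readings. The median over the 11 was 0.34 on the log2 scale, and 1.97 over the 7 above background. The summed linear level of the 11 was 4435 with Dll1 and 306 with TGF-beta1, beside 570 in intestinal mast cells and 345 in control BMMCs. Prg2, the highest of the list with Dll1, weighs most in the Dll1 sum. The major basic protein Prg2 read 11.45 with Dll1 and 4.75 with TGF-beta1, at least 75.8-fold higher, the largest bound of the comparison, beside 5.08 in intestinal mast cells and 5.40 in control BMMCs. Its relative Prg3 read 9.55 with Dll1 and 4.77 with TGF-beta1, at least 20.3-fold higher, and eosinophil peroxidase Epx read 8.83 with Dll1 and 4.71 with TGF-beta1, at least 12.3-fold higher. The ribonuclease Ear6 read 6.38 with Dll1 and 4.36 with TGF-beta1. The lipoxygenase Alox15 differed from these in being high in intestinal mast cells too, with 7.37 with Dll1, 5.40 with TGF-beta1 and 7.80 in intestinal mast cells. The defining surface markers of eosinophils Siglecf and Il5ra were below background on the Dll1 array, at 5.01 and 4.92, and Ccr3 read 5.58 with Dll1 and 5.24 with TGF-beta1.

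Neutrophil and promyelocyte markers were also higher with Dll1. Of 22 measured, 20 were above background with Dll1 and 8 with TGF-beta1. Of the 20, 8 were higher with Dll1 (40%, against 2.19% of all tested genes) and none was lower. All 20 passed the limit on the Dll1 array, so counts over them are tilted towards higher readings. The median over the 22 was 1.01 on the log2 scale, and 0.66 over the 20 above background. Their summed linear level was 2972 with Dll1 and 762 with TGF-beta1, beside 1131 in intestinal mast cells and 767 in control BMMCs. Neutrophil elastase Elane read 8.76 with Dll1 and 4.89 with TGF-beta1, at least 11.8-fold higher, and was below background in intestinal mast cells at 4.88 and in control BMMCs at 4.87. Myeloperoxidase Mpo read 7.97 with Dll1 and 5.23 with TGF-beta1, 6.68-fold higher, and the granule protein Ngp was at least 6.35-fold higher. Prtn3, a serine protease stored with elastase, was 4.83-fold higher and Ms4a3, a gene of granulocyte precursors, 3.21-fold higher. The calcium-binding proteins S100a8 and S100a9 were at least 12.5-fold and 3.76-fold higher. The part of other granulocytes or their precursors in the Dll1 readings was not tested. Cathepsin G, named above among the mast cell proteases, is also on this list, and it alone of the 8 read nearer to Dll1 in intestinal mast cells.

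Basophil markers, several of which mast cells share, were above background on all 4 arrays for all 12 genes measured, and 6 were higher with Dll1 and 1 lower. These were 50% and 8.33% of the 12, against 2.19% and 1.89% of all tested genes. Besides Mcpt8, Csf1, Ccl3, Ms4a3 and Gzmb, the higher genes included the activation marker Cd69, at 11.29 with Dll1 and 8.82 with TGF-beta1, and the lower one was Ifitm1. The basophil list's summed linear level was 11023 with Dll1 and 4252 with TGF-beta1, beside 12476 in intestinal mast cells and 6022 in control BMMCs, and the part of basophils was not tested. Of 18 T, NK and innate lymphoid markers, 6 were above background with Dll1 and 4 with TGF-beta1. The genes Gzma, Nkg7, Il7r and Gzmb of this list were higher with Dll1 (66.7% of the 6, against 2.19% of all tested genes). All 6 passed the limit on the Dll1 array, so this share is tilted upwards. Thy1 read 5.97 with Dll1 and 5.32 with TGF-beta1, while Cd5 read 5.43 with Dll1 and 5.54 with TGF-beta1. The T cell receptor complex gene Cd3e was below background in both cultures. Of 23 macrophage and dendritic cell markers, 1 was higher with Dll1, Itgam, and their summed linear level was 1850 with Dll1 and 1545 with TGF-beta1. Itgam was 1 of 15 above background (6.67%, against 2.19% of all tested genes). Of 13 B cell markers, 3 were above background on 1 or both arrays and none was past 2-fold. These are too few to set against the 4.08% of all tested genes. Among 34 genes of feeder or adherent cells, 25 were above background with Dll1 and 18 with TGF-beta1. Of the 25, 3 were higher with Dll1 (12%, against 2.19% of all tested genes): Dll1 itself, the actin cross-linker Actn1 and annexin Anxa2. Of the 25, 21 read higher with Dll1 and 4 lower, while 6435 of all 12690 tested genes read above TGF-beta1 with Dll1. The 25 include genes above background with Dll1 alone, so the filter itself tilts this split upwards. Thbs1 had a bound of 2.00-fold that fell just short of the threshold, while Pdgfrb was at 1.87-fold and Igfbp4 at 1.82-fold. The list's summed linear level was 2126 with Dll1 and 1450 with TGF-beta1, beside 1836 in intestinal mast cells and 1330 in control BMMCs. The array carries mouse probes, and hamster RNA on it was not tested. Nid1, a basement membrane gene outside this list, was also higher with Dll1 and is described below.

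Among MHC class II genes, which present peptides to T helper cells, 4 were higher with Dll1, at levels near the intestinal ones. Of 14 measured, 9 were above background with Dll1 and 5 with TGF-beta1. Of the 9, 4 were higher with Dll1 (44.4%, against 2.19% of all tested genes) and none was lower. All 9 passed the limit on the Dll1 array, so counts over them are tilted towards higher readings. The median was 0.45 on the log2 scale over the 14 and 0.98 over the 9. H2-Ea read 9.05 with Dll1 and 4.5 with TGF-beta1, at least 14.4-fold higher, beside 8.99 in intestinal mast cells and 4.70 in control BMMCs. H2-Ab1 read 8.63 with Dll1 and 6.07 with TGF-beta1, 5.89-fold higher, and H2-Eb1 read 8.08 with Dll1 and 5.80 with TGF-beta1, 4.87-fold higher. H2-DMb2, a chain of the peptide loading factor, was at least 5.09-fold higher, and H2-Aa reached 1.98-fold. The part of antigen-presenting cells, whose other markers are given above, was not tested. The class II activator Ciita read 5.53 with Dll1 and 4.97 with TGF-beta1, while the costimulators Cd80 and Cd86 were below background in both cultures. None of 11 class I genes was past 2-fold, where 4.08% of all tested genes were.

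**Figure D4:**
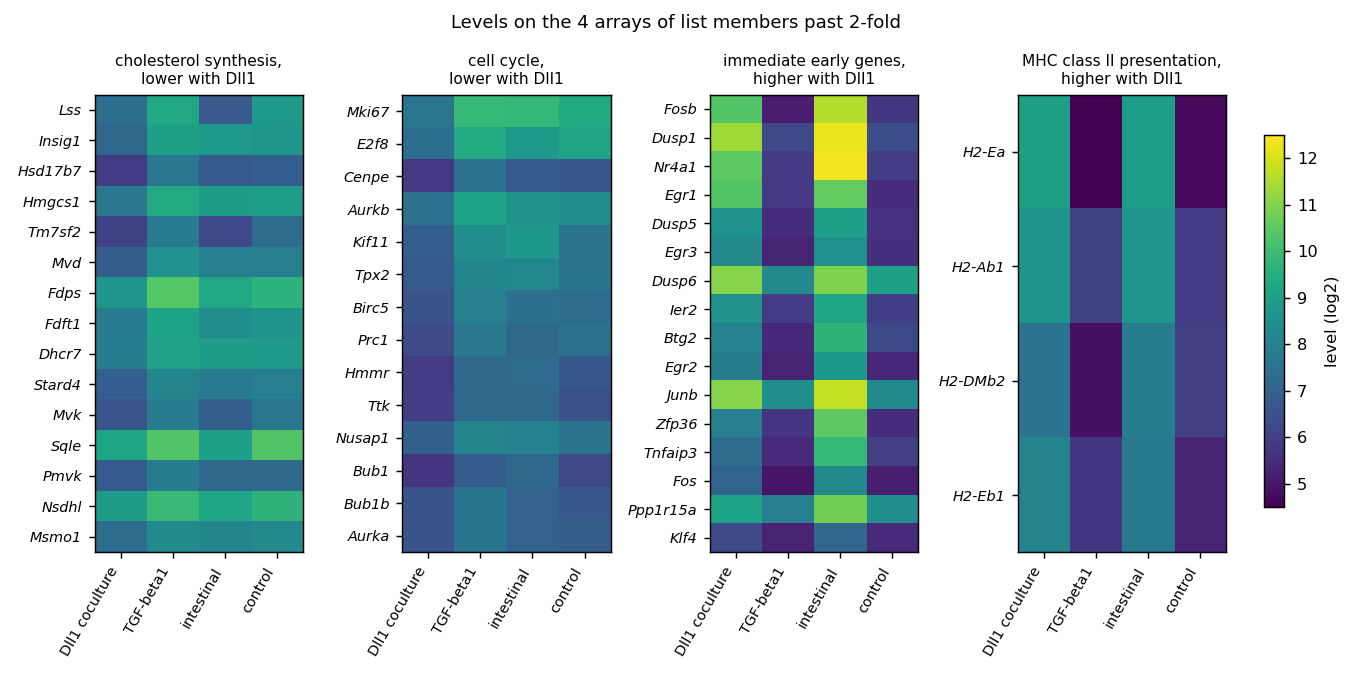
Levels (log2, colour scale) of the members past 2-fold of 4 gene lists on the Dll1, TGF-beta1, intestinal and control arrays. The 15 cholesterol synthesis and 14 cell cycle genes are darker on the Dll1 array than on the TGF-beta1 and control arrays, while the 16 immediate early and 4 MHC class II genes are brighter on the Dll1 and intestinal arrays than on the other two.

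S100 proteins and annexins gave 7 higher of 16 measured and none lower. With 15 of the 16 above background, 46.7% were higher, against 2.19% of all tested genes. S100a6 read 10.78 with Dll1 and 7.75 with TGF-beta1, 8.15-fold higher, and S100a4 read 9.18 with Dll1 and 6.28 with TGF-beta1, 7.46-fold higher. These 2 were also high in control BMMCs, at 10.15 for S100a6 and 8.52 for S100a4, and low in intestinal mast cells, at 5.81 and 5.79. S100a8 and S100a9, in contrast, were below background on the other 3 arrays. For all 7 genes the intestinal reading was nearer to TGF-beta1.

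Several of the most different genes stood outside these groups. Nid1, a basement membrane protein, read 8.89 with Dll1 and 4.46 with TGF-beta1, at least 12.9-fold higher, and was below background on the other 2 arrays. A further Nid1 probe set gave 7.21 with Dll1 and 4.84 with TGF-beta1. Nid1 was not among the listed feeder or adherent cell genes, and whether its RNA came from the CHO cells was not tested. Layn, a hyaluronan receptor, read 8.01 with Dll1 and 5.35 with TGF-beta1, while Asb2, a ubiquitin ligase subunit, read 8.57 with Dll1 and 5.71 with TGF-beta1, 6.35-fold and 7.28-fold higher. Tyrobp, the signalling adaptor of many activating receptors, read 10.34 with Dll1 and 8.33 with TGF-beta1, 4.02-fold higher, and Ndrg1, a gene induced by hypoxia, read 9.69 with Dll1 and 7.13 with TGF-beta1, 5.88-fold higher. On the side lower with Dll1, neuritin (Nrn1) read 5.16 with Dll1 and 8.97 with TGF-beta1, 14.1-fold lower, and the coagulation factor F13a1 read 5.12 with Dll1 and 8.65 with TGF-beta1, at least 11.6-fold lower. The proton channel Otop1 read 4.75 with Dll1 and 8.47 with TGF-beta1, at least 10.2-fold lower. Mfsd2a, a lipid transporter, read 5.62 with Dll1 and 8.02 with TGF-beta1, 5.28-fold lower, beside 4.85 in control BMMCs.

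Of 33 lineage transcription factors, 31 were above background, 1 was higher, Id2 (3.23%), and 3 were lower (9.68%). The shares over all tested genes were 2.19% higher and 1.89% lower. Eomes, a T-box factor of cytotoxic lymphocytes, read 4.94 with Dll1 and 7.07 with TGF-beta1, at least 3.86-fold lower, beside 4.91 in intestinal mast cells and 5.89 in control BMMCs. Runx3, a factor of cytotoxic T cells, read 8.06 with Dll1 and 9.21 with TGF-beta1, 2.23-fold lower, and Gfi1b, of the megakaryocyte and erythroid lineages, read 7.73 with Dll1 and 8.78 with TGF-beta1, 2.07-fold lower. The mast cell factors Mitf and Gata2 stayed within 2-fold, at 9.04 with Dll1 and 8.26 with TGF-beta1 for Mitf and 9.86 with Dll1 and 10.48 with TGF-beta1 for Gata2. Among 35 interferon response genes, 26 were above background, 3 were lower with Dll1 (11.5%) and none was higher. The lower ones were Gbp4 by 3.99-fold, Stat2 by 3.22-fold and Ifitm1 by 2.07-fold. All 3 read higher still in control BMMCs than with TGF-beta1. The long noncoding RNA Neat1 read 6.36 with Dll1 and 8.99 with TGF-beta1, 6.21-fold lower, and Dleu2 was 3.11-fold lower.

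Several housekeeping groups showed no gene past 2-fold, where 4.08% of all tested genes passed, and lists of this length with none lie near that share. They were ribosome biogenesis (29 genes, log2 differences between -0.71 and 0.34), the unfolded protein response (22 genes, between -0.74 and 0.53) and apoptosis regulators (23 genes, of which 21 were above background, between -0.60 and 0.93 with low values raised to the limit). Oxidative phosphorylation had 1 of 33, Ndufb10, which was 2.13-fold lower with Dll1.

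The other 2 arrays show where these differences lay relative to the sorted tissue cells and to the control BMMCs kept for 6 days in normal medium. The genes were chosen for the distance between the Dll1 and TGF-beta1 readings, so the counts below are a description from which nothing is read about either signal. Of the 278 genes higher with Dll1, the intestinal reading was nearer to Dll1 for 146 (52.5%), against 42.3% of all 6435 tested genes that read above TGF-beta1 with Dll1. Of the 240 lower genes it was nearer to Dll1 for 138 (57.5%), against 56.0% of the 6255 tested genes that read below. When genes of the immediate early list, the feeder list and the lists of other cell types were left out, 237 higher genes remained, and the intestinal reading was nearer to Dll1 for 118 of them (49.8%). Control readings were nearer to TGF-beta1 for 194 of the higher genes (69.8%) and 164 of the lower genes (68.3%), against 60.4% and 57.8% of the tested genes of each direction.

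By group, the intestinal readings split. They were nearer to Dll1 for all 5 higher proteases, all 16 higher immediate early genes and all 4 higher MHC class II genes. Over all 278 higher genes this share was 52.5%. They were nearer to TGF-beta1 for 12 of the 14 lower cell cycle genes, 7 of the 8 higher neutrophil and promyelocyte markers and 4 of the 5 higher eosinophil markers. The shares nearer to TGF-beta1 were 42.5% over all 240 lower genes and 47.5% over all 278 higher genes. For cholesterol synthesis the intestinal readings were nearer to Dll1 for 9 of the 15 lower genes (60%). That is near the 57.5% of all 240 lower genes.

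**Figure D5:**
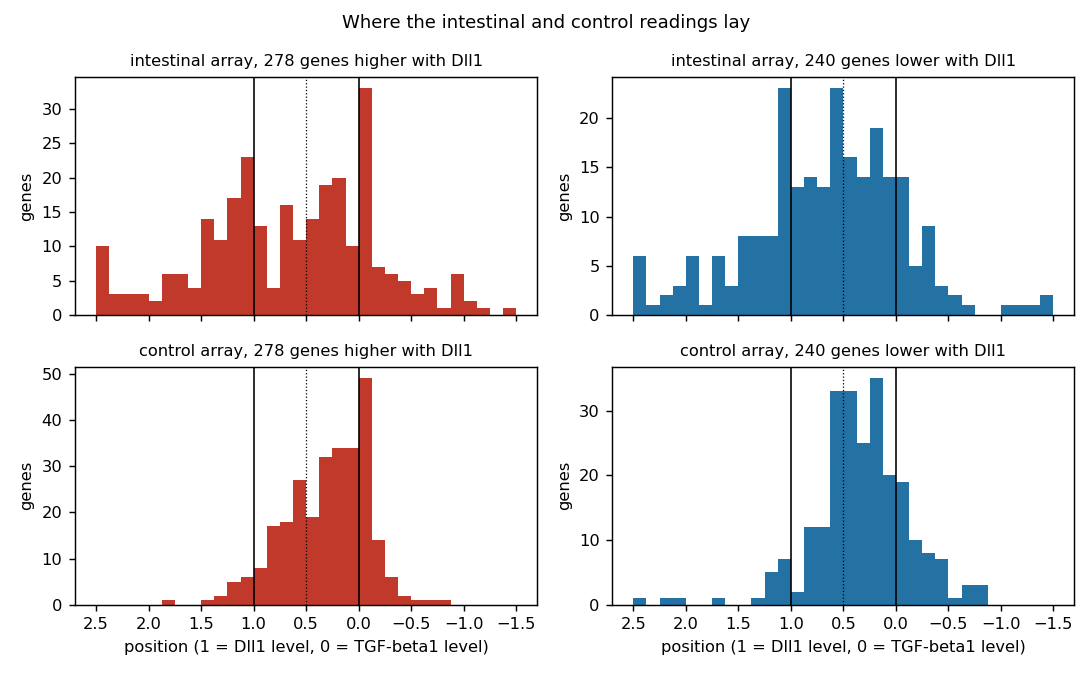
Number of genes (vertical axis) by the position of the intestinal (top) or control (bottom) reading on a scale where 1 is the Dll1 level and 0 the TGF-beta1 level, for the 278 genes higher and the 240 genes lower with Dll1. Solid lines mark the 2 cultures, the dotted line is the midpoint of 0.5, and values beyond -1.5 or 2.5 are counted in the end bins. Control readings lie mostly on the TGF-beta1 side of the midpoint, and intestinal readings spread widely around both.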

How the data were processed

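RNA of 4 mast cell preparations was amplified from 2 ng and read on Affymetrix arrays, 1 per group, per the labels. The authors deposited a log2 table of 33793 probe sets that spans 4.13 to 13.14. Which software, normalization and build lie behind it is not given in the sources used here. Once sorted, the arrays differed on average by 0.06, and no normalization was added.

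Genes came from the platform annotation, with the probe set of highest mean over the 4 arrays kept (22180 genes). Differences are Dll1 minus TGF-beta1, called by the limits stated above. With no replicates no test was run, and precision is limited by the number of arrays. List medians use the measured values of all members. Named genes are the 20 highest and 20 lowest differences, the 10 largest bounds each way, up to 6 genes per list, and all members of 8 lists (proteases, Notch ligands and receptors, Notch targets, TGF-beta receptors, TGF-beta targets, cholesterol synthesis, eosinophil markers, integrins), leaving out predicted genes and small RNAs among the ranked ones. A few defining markers and list members outside it were named after their values were seen. Of 1551 names on 57 lists, 1385 were measured. Members and lists were chosen with earlier results of these data known. Start windows are from RefSeq, GRCm38.p6. Python 3.11.15, pandas 2.3.3 and numpy 2.4.6 were used, and the rule for calls was tested on simulated data. Alternatives were array scaling, background percentiles, probe set averaging and an offset.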

Additional observations from a re-analysis of the deposited data

How the results depend on the processing

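Subtracting an offset of 16 from the linear values widens the differences of dim genes, and it gave 434 higher and 403 lower genes with Dll1, beside 278 and 240. Under the other settings the higher and lower counts stayed within 1.5 times: 253 and 285 with array medians subtracted, 279 and 255 with quantile normalization repeated, 294 and 246 with the background limit at the 90th percentile, 226 and 185 at the 99th, 302 and 251 with no limit, 266 and 226 when probe sets of a gene were averaged, and 237 and 237 with the early response list, the feeder list and the lists of other cell types left out. Higher genes were 53.7% of the called genes, and 47.0% with array medians subtracted. No named gene past 2-fold changed direction. Of 57 list medians, 5 changed sign with array medians subtracted, 1 with quantile normalization repeated and 4 over members above background alone, among them Notch targets (0.10, beside -0.03) and Mas-related receptors (-0.29, beside 0.03). The median of immediate early genes was 1.5 with the offset. Among the 40 called genes with 43 further probe sets, 29 of these were above background, 25 in the same direction and 5 past 2-fold. Dim genes are limited by background, and 54 higher and 19 lower genes have bounds only. No paired analysis was possible because each group is 1 array, and no array could be left out for the same reason.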

Other observations

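Sugar metabolism and redox genes held a few differences not described above. Of 26 glycolysis and hypoxia genes, Ndrg1 was higher with Dll1 and 2 were lower, the aldolase Aldoc with 7.18 with Dll1 and 8.48 with TGF-beta1 and the carbonic anhydrase Car9 with 6.6 with Dll1 and 7.71 with TGF-beta1. Of the 24 above background, 4.17% were higher and 8.33% lower, against 2.19% and 1.89% of all tested genes. The antioxidant enzyme Nqo1 read 8.78 with Dll1 and 7.66 with TGF-beta1, 2.17-fold higher, while Gclc, which makes the glutathione precursor, read 7.40 with Dll1 and 8.55 with TGF-beta1, 2.23-fold lower. The cystine transporter Slc7a11 was at least 2.40-fold higher, at 6.47 with Dll1 and 4.61 with TGF-beta1, although the mean of its probe sets gave a difference of 0.20 on the log2 scale. Lysosomal genes included the protease Lgmn, at 7.16 with Dll1 and 5.57 with TGF-beta1, and the sulfatase Arsb, at 7.23 with Dll1 and 5.95 with TGF-beta1. The inflammasome sensor Nlrp6 read 6.99 with Dll1 and 8.36 with TGF-beta1, 2.58-fold lower, beside 5.65 in intestinal mast cells and 5.43 in control BMMCs, so that both cultures stood above the other 2 arrays.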
